A study of Mus musculus with 6 samples.

Results

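The heat-shock proteins and their DNAJ co-chaperones were followed in livers that had gone through ischemia and reperfusion (I/R), with or without ginsenoside Rk2. Members were chosen by a rule on gene names, set with earlier results of these data known, and 80 of the 15454 genes in the count table qualified. These were the genes whose names begin with Hspa, Hspb, Hspd1, Hspe1, Hsph1, Hsp90, Dnaja, Dnajb or Dnajc, together with Bag1 to Bag6, Hsf1, Hsf2, Chordc1, Ahsa1 and Stip1. The beginning Hspb also took in Hspbp1, Hspbap1 and Hspb11, which are not classical small heat-shock proteins. By the place where the protein mainly works, 39 were cytosolic or nuclear chaperones, 12 were co-factors or heat-shock transcription factors, 13 belonged to the endoplasmic reticulum (ER), 8 to mitochondria, and 8 fell in none of these groups.

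All livers came from male C57BL/6 mice between 8 and 10 weeks old in which 75% of the organ had been made ischemic at body temperature and then reperfused. In the I/R group 3 mice had received the vehicle, and in the I/R+Rk2 group 3 mice had received ginsenoside Rk2, a saponin of ginseng, with a first dose 2 days ahead of surgery and another as perfusion began. RNA was taken from the liver as a whole, so every value below is a mixture of its cell types. No sham-operated liver was analysed here, so each level is that of an injured liver and no value shows what I/R alone did.

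Heat-shock proteins are molecular chaperones that hold, refold or hand over unfolded proteins. HSP70 proteins bind short exposed stretches of a client in a cycle driven by ATP. J-domain proteins of the DNAJ families bring clients to HSP70 and start ATP hydrolysis, while HSP110 proteins and BAG proteins release the nucleotide and end the cycle. HSP90 takes over nearly folded clients such as kinases and steroid receptors, and small heat-shock proteins keep aggregating proteins soluble without ATP. In the cytosol, heat-shock factor 1 (HSF1) switches on the inducible members when unfolded proteins build up. The ER has its own set, switched on by the unfolded protein response, and mitochondria have the HSP60 and HSP10 folding chamber and the import motor around mitochondrial HSP70. Oxidative damage during reperfusion of the liver is a classical setting in which inducible HSP70 is made.

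The libraries held between 16809613 and 35618074 counts, at which depth 3 counts stood for 0.0888 to 0.184 CPM (counts per 1000000 of the scaled library size). The 2 groups differed widely: of 12411 genes tested with edgeR, 43.9% passed an adjusted p of 0.05, 23.7% lower and 20.3% higher in I/R+Rk2. Cell-type markers moved with the groups as well. The summed level of the neutrophil markers ran from 527 to 647 CPM over the I/R livers against 97.8 to 228 CPM over the I/R+Rk2 livers, with 9 of 11 tested markers lower and the defining genes Camp and Mpo not analysed here. Monocyte and macrophage markers summed to 299 to 340.5 CPM against 58.0 to 77.4 CPM, with 10 of 15 lower. Hepatocyte markers summed to 76540 to 88946 CPM against 111461 to 138588 CPM, with 8 of 15 higher, while endothelial markers summed to 282 to 295 CPM against 245 to 288 CPM, with 5 lower and 4 higher of 15. In such whole-tissue samples, fewer cells of a type and less RNA per cell cannot be told apart, and the part of these shifts in any result below was not tested.

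Of the 80 members, 74 had enough counts to be tested. In I/R+Rk2, 23 of them fell, 10 rose and 41 did not pass the test, which is 44.6% called against 43.9% of all genes tested. The members were thus called about as often as genes at large. By direction, 31.1% were lower and 13.5% higher, beside 23.7% and 20.3% of all genes, and the difference in these shares was not tested. A fold change above 2 with an adjusted p below 0.05 was reached by 7 members, all of them lower (Hspb7, Dnajc27, Hspb1, Hspb8, Hsph1, Hsp90aa1 and Hspbap1), beside 14.6% of all genes, 11.4% lower and 3.17% higher. The livers of the 2 groups did not overlap for 40 members, 25 lower and 15 higher in I/R+Rk2, beside 57.4% of all genes, 30.3% lower and 27.1% higher. The median log2 fold change was -0.11 over the 74 members and -0.01 over all genes tested. These medians lay close together in some alternatives. They were -0.019 for members and -0.021 for all genes without the I/R+Rk2 liver of replicate 2. With the length correction they were -0.0078 and 0.024. With library size alone as the scaling, the median of all genes moved to -0.17, and the share of all called genes that were lower from 53.9% to 72.5%. There 26 members were lower and 3 higher, beside 28.0% and 10.6% of all genes. Leaving out the I/R liver of replicate 1 or the I/R+Rk2 liver of replicate 2 left 15 members lower, beside 17.6% and 18.2% of all genes. Leaving out the I/R livers of replicate 2 or 3 or the I/R+Rk2 livers of replicate 2 or 3 left 5, 3, 5 and 6 higher, and without either of these I/R+Rk2 livers 3 members were past a fold of 2.

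Calls were counted for each compartment apart, and each count stands beside the 23.7% lower and 20.3% higher of all genes tested. Among cytosolic or nuclear chaperones 17 of 34 tested members fell and 2 rose, with a median log2 fold change of -0.35. Of 13 ER members 1 fell and 0 rose, with a median of -0.12. At an unadjusted p below 0.05, 0 ER members were higher with edgeR, 1 with DESeq2 and 0 with limma on log2(FPKM + 1). Of 8 mitochondrial members 2 fell and 3 rose, with a median of -0.00. Of 12 co-factors and heat-shock factors 1 fell and 2 rose, with a median of 0.19. Whether these shares differ between compartments was not tested.

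**Figure D1:**
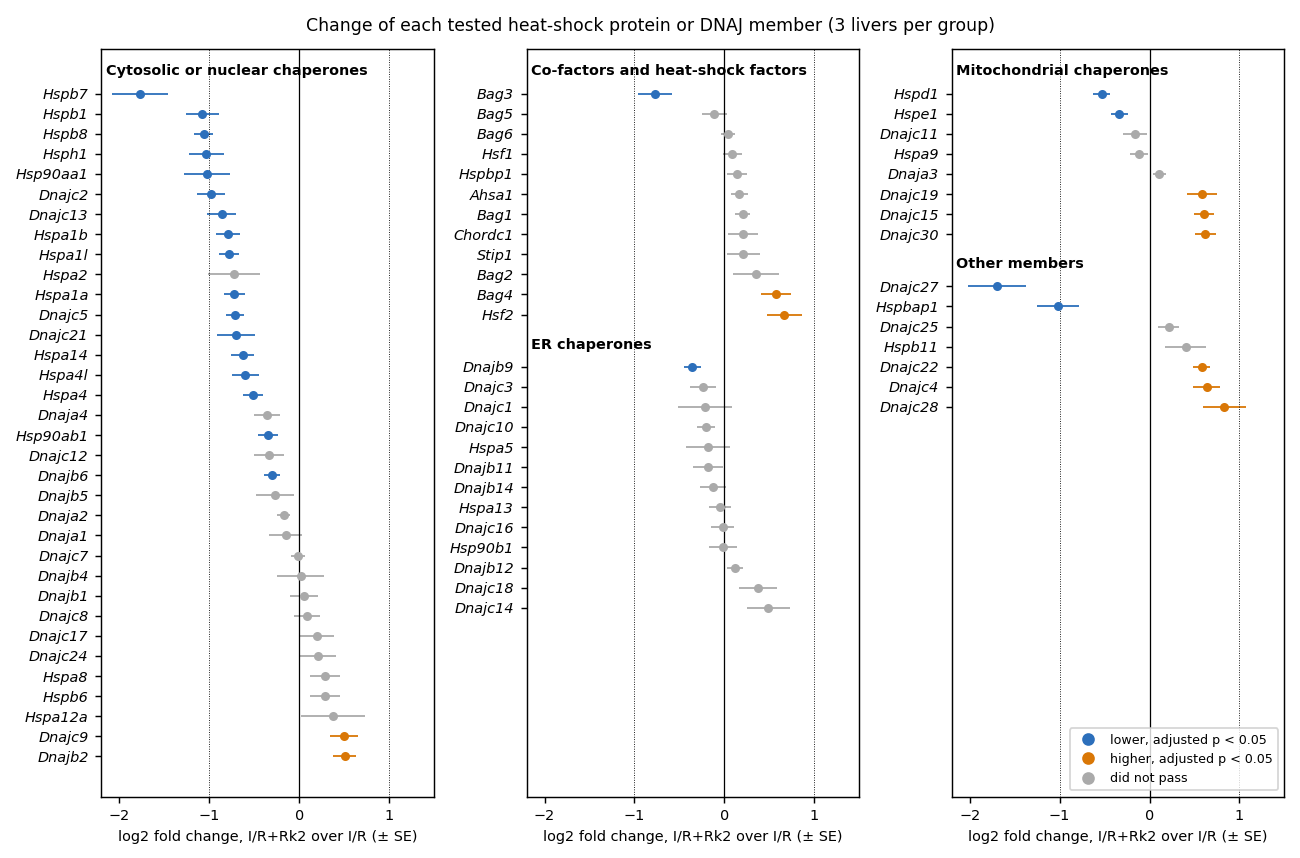
Log2 fold change (I/R+Rk2 over I/R, x axis) of each of the 74 tested members, with its standard error, in 3 panels by compartment. Blue points fell and orange points rose at an adjusted p below 0.05, grey points did not pass, and dotted lines mark a fold change of 2. The cytosolic panel holds 17 blue points, the ER panel 1.

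Most of the falls among cytosolic chaperones were in the HSP70, HSP110, HSP90 and small heat-shock proteins, and fewer in their J-domain partners. This grouping was made after the values were seen, and the difference between classes was not tested. The 4 classes held 17 genes, without the distant HSP70 relatives Hspa12a and Hspa12b. Of these 15 were tested, and 12 fell and 0 rose, with a median log2 fold change of -0.73, beside 23.7% lower and 20.3% higher of all genes. At an unadjusted p below 0.05, 0 were higher with edgeR, DESeq2 or limma on log2(FPKM + 1). Hspa1a, Hspa1b and Hspa1l, which are close in sequence (below), are among the 12 and are not fully separate cases. With Hspa1a and Hspa1b summed to 1 gene, 11 of 14 fell and 0 rose, beside 23.7% lower and 20.2% higher of all genes. Of 8 tested cytosolic DNAJA and DNAJB genes 1 fell and 1 rose, with a median of -0.16, and of 10 DNAJC genes 4 fell and 1 rose, with a median of -0.18. Relative log expression scaling, upper-quartile scaling and library size alone left 11 or 12 of the 15 lower and 0 higher. The count lower was 9 without the I/R liver of replicate 1 or the I/R+Rk2 liver of replicate 2, 10 without the liver of replicate 3 of either group, and 12 without the I/R liver of replicate 2 or the I/R+Rk2 liver of replicate 1. It was 10 of 14 in both filtered fits of limma to FPKM, and none of these alternatives called one higher. Of all genes, 17.6% to 24.2% were lower with a liver left out, and 26.9% and 26.6% in the filtered fits.

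Hspa1a and Hspa1b encode the inducible HSP70 and lie close together on the minus strand of chromosome 17, at chr17:34969190-34972156 and chr17:34956436-34959238 (GRCm38). Hspa1a stood at 965, 900.4 and 917 CPM in the I/R livers and 618, 590.0 and 478 CPM in the I/R+Rk2 livers. Hspa1b stood at 1233, 1064 and 1116 CPM in the I/R livers and 744, 682 and 547 CPM in the I/R+Rk2 livers. Every I/R+Rk2 liver lay below every I/R liver for both genes, with the I/R+Rk2 liver of replicate 3 the lowest. The log2 fold change was -0.72 ± 0.12, adjusted p = 0.00326 (edgeR quasi-likelihood test with Benjamini-Hochberg adjustment) for Hspa1a and -0.79 ± 0.13, adjusted p = 0.00392 for Hspa1b, and both passed under all 17 alternatives. Their longest transcripts are identical at 98.9% of 2214 aligned bases, with one identical run of 638 bases, so reads cannot always be given to one of the pair. Summed to 1 gene before the test, they gave a log2 fold change of -0.76 (adjusted p = 0.00402).

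Hspa1l, the testis-type HSP70 gene on the opposite strand beside them, stood at 61.1, 56.2 and 54.6 CPM in the I/R livers and 36.7, 34.5 and 28.6 CPM in the I/R+Rk2 livers, again without overlap between groups. It fell by 0.78 on the log2 scale (adjusted p = 0.00219). Its counts were between 5.85% and 6.33% of those of Hspa1a in every liver. Its longest transcript is identical to that of Hspa1a at 83.3% of 1913 aligned bases, with a run of 233 identical bases, and the antisense gene Gm10501, not analysed here, overlaps 71.9% of its exonic length. Its values are therefore uncertain as a measure of Hspa1l itself.

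The promoters of Hspa1a and Hspa1b are shown because the genes moved together and because their windows carry a pair of units of the heat-shock element, which HSF1 binds. Windows ran from 250 bases before to 50 bases after each gene start (RefSeq, GRCm38.p6), and the windows of Hspa1a and Hspa1b matched at 296 of 300 bases. The heat-shock element is built of units of nGAAn in alternating orientation. A pair of units was searched as GAANNTTC or TTCNNGAA. The element of 3 units was searched as GAA, NN, TTC, NN and GAA in a row, or TTC, NN, GAA, NN and TTC, where N is any base. Both strands were read, and each match of 3 units also holds a pair. The pairs are in capitals in Hspa1a (chr17:34972243-34972270, minus strand), Hspa1b (chr17:34959325-34959352, minus strand) and the small heat-shock gene Hspb1 (chr5:135887792-135887839, plus strand), all before the gene start.
Hspa1a: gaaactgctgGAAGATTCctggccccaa
Hspa1b: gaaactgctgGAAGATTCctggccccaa
Hspb1: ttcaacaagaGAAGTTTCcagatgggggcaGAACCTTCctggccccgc
The stretches of Hspa1a and Hspa1b have the same letters, and that of Hspb1 has 2 pairs. The element of 3 units was not found in the windows of Hspa1a, Hspa1b or Hspb1. Only exact letters were searched, so elements with an imperfect unit were not counted, in these genes or in any other. A pair of units was found in 15.1% of all 32851 promoter windows and in 22.0% of the 82 windows of members. Counted by gene, it was in 16.97% of 27025 genes and in 24.6% of the 65 members with an entry (16 members), so it is a common string. Of the 16, Chordc1, Dnaja1, Dnaja4, Dnajb4, Dnajc10 and Hspb6 did not pass and the others fell. Members with an entry but without a pair that fell were Dnajb9, Dnajc13, Dnajc21, Hspa1l, Hspa4, Hspa4l, Hspa14, Hspb7 and Hspbap1. Dnajb2, Dnajc4, Dnajc9, Dnajc15, Dnajc19, Dnajc28 and Hsf2 had no pair and rose, and the other tested ones did not pass. Of all genes tested, 23.7% were lower and 20.3% higher, and the difference by pair was not tested. The stricter 3 units stood in at least 1 window of 0.662% of all genes and of 7.69% of the 65 members (Chordc1, Dnajb6, Hspd1, Hspe1 and Hsph1). Of these 5, 4 fell and Chordc1 did not pass, while of the 55 tested members with an entry but without the 3 units, 15 fell and 7 rose. Among all genes tested 23.7% were lower, and the difference between these shares was not tested. Hspd1 and Hspe1 share the same matches, so they are not separate cases. With each of the 6 livers left out in turn, Hspe1 passed in 1 fit and Dnajb6 in 2. A match is a description of the letters and not a measured binding site.

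Hspa8, the constitutive HSP70 of the cytosol, stood at 419.7, 426 and 524 CPM in the I/R livers and 668, 442 and 567 CPM in the I/R+Rk2 livers. The groups overlapped, and the log2 fold change of 0.29 ± 0.17 did not pass (adjusted p = 0.197). The counts of Hspa1a and Hspa1b together were 3.88 to 5.24 times those of Hspa8 in the I/R livers and 1.81 to 2.88 times in the I/R+Rk2 livers. That ratio is taken within a liver, so library scaling does not enter it. The groups did not overlap in it. Hspa14, a ribosome-associated HSP70 chosen after its values were seen, fell by 0.63 on the log2 scale (adjusted p = 0.00676). Hspa2 at -0.73 ± 0.29 (adjusted p = 0.0777) did not pass.

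All 3 HSP110 genes, which encode nucleotide exchange factors of HSP70, were lower. Hsph1, the heat-inducible one, stood at 367, 283 and 226 CPM in the I/R livers and 169, 132 and 128 CPM in the I/R+Rk2 livers. The groups did not overlap although the I/R livers spread widely among themselves, and the log2 fold change was -1.03 ± 0.19 (adjusted p = 0.00576). Hspa4, the constitutive one, stood at 162, 149 and 143 CPM in the I/R livers and 121, 100.3 and 96.8 CPM in the I/R+Rk2 livers, also without overlap, and fell by 0.51 (adjusted p = 0.00888). Hspa4l fell by 0.60 (adjusted p = 0.0183, 0.00555 to 0.873 over the alternatives), while limma on its log2(FPKM + 1) gave -0.09 (adjusted p = 0.841). Without the I/R liver of replicate 1 it was at -0.47 (adjusted p = 0.0713) and without the I/R+Rk2 liver of replicate 2 at -0.48 (adjusted p = 0.0528).

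Both cytosolic HSP90 genes were lower. Hsp90aa1, the stress-inducible HSP90 alpha, stood at 415, 221 and 375 CPM in the I/R livers and 208, 143 and 146 CPM in the I/R+Rk2 livers. The lowest I/R liver and the highest I/R+Rk2 liver were close to each other, and the other I/R livers lay far above. Its log2 fold change was -1.03 ± 0.26 (adjusted p = 0.0162, 0.000262 to 0.0594 over the alternatives). The call was lost without the I/R livers of replicate 1 (-0.84, adjusted p = 0.057) or 3 (-0.94, 0.0538) and without the I/R+Rk2 livers of replicate 2 (-0.93, 0.0594) or 3 (-0.93, 0.0546). Hsp90ab1, the constitutive HSP90 beta, stood at 1160.0, 1067 and 1020.0 CPM in the I/R livers and 961, 772 and 819.5 CPM in the I/R+Rk2 livers and had a log2 fold change of -0.35 ± 0.11, which passed narrowly (adjusted p = 0.0436). It passed in 9 of 17 alternatives (0.0151 to 0.143), and it held without the I/R+Rk2 liver of replicate 1 but with none of the other 5 livers left out (-0.39 to -0.28, adjusted p = 0.0758 to 0.143). Hsp90aa1 counts were 0.207 to 0.367 times those of Hsp90ab1 in I/R and 0.178 to 0.216 times in I/R+Rk2, and these ranges overlapped.

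Of the 4 small heat-shock genes tested 3 fell, beside 23.7% of all genes. Hspb1, the mouse HSP27, stood at 216, 234 and 192 CPM in the I/R livers and 132, 90.7 and 81.6 CPM in the I/R+Rk2 livers. Hspb8, which works with Bag3 in sending aggregated proteins to autophagy, stood at 505, 486 and 486 CPM in the I/R livers and 258, 243 and 207 CPM in the I/R+Rk2 livers. Both genes had every I/R+Rk2 liver below every I/R liver, and the 3 I/R livers of Hspb8 lay within a narrow band. The log2 fold changes were -1.08 ± 0.19, adjusted p = 0.00409 for Hspb1 and -1.06 ± 0.10, adjusted p = 0.000609 for Hspb8, and both passed in 17 of 17 alternatives. Hspb7, a small heat-shock protein best known from heart and muscle, had few counts, 37 to 48 in the I/R libraries and 11 to 16 in the I/R+Rk2 libraries, and a log2 fold change of -1.77 ± 0.31 (adjusted p = 0.00429). It passed in all 15 alternatives that gave it a value, but with a log2 fold change of -0.51 in limma on log2(FPKM + 1), a scale that understates the change of low genes. Hspb6 at 0.29 ± 0.17 (adjusted p = 0.195) did not pass.

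**Figure D2:**
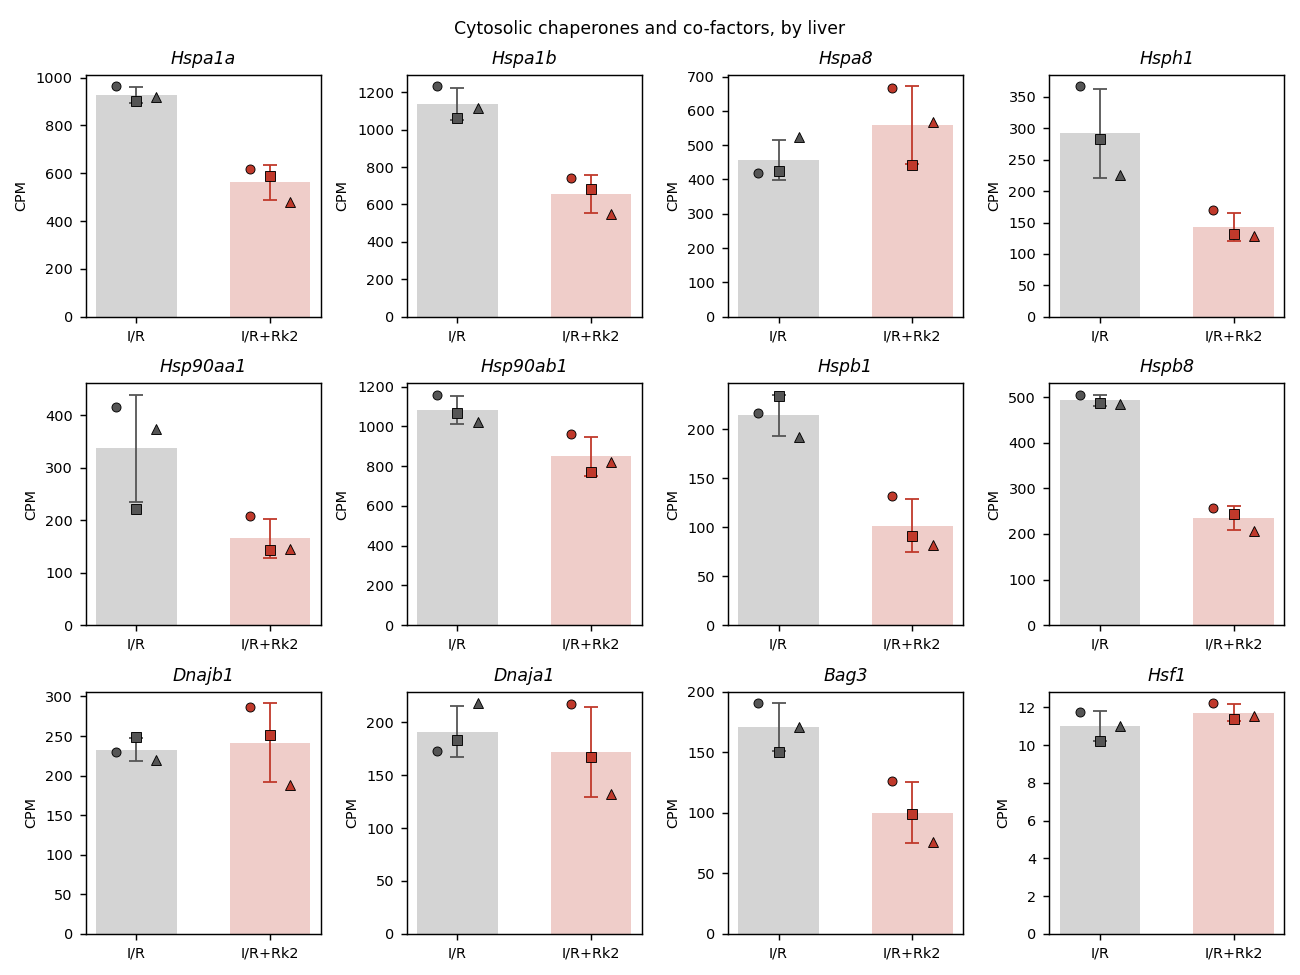
CPM (y axis, from 0) of 12 cytosolic chaperones and co-factors in each liver. Bars are group means with the standard deviation of 3 livers, and circles, squares and triangles are replicates 1, 2 and 3. Hspa1a, Hspa1b, Hsph1, Hspb1, Hspb8 and Bag3 are lower in all 3 I/R+Rk2 livers, while Hspa8, Dnajb1, Dnaja1 and Hsf1 overlap between groups.

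Dnajb1, the HSP40 that is a J-domain partner of cytosolic HSP70 and a classical heat-shock gene, stood at 230.4, 249 and 219 CPM in the I/R livers and 286, 250.8 and 188 CPM in the I/R+Rk2 livers. Its I/R+Rk2 livers reached both above and below the I/R livers, and the log2 fold change was 0.05 ± 0.15 (adjusted p = 0.795). Dnaja1, another HSP40 that helps refold cytosolic proteins and carry others to mitochondria, was at -0.15 ± 0.18 (adjusted p = 0.534), and Dnajb4 at 0.02 ± 0.26 (adjusted p = 0.967). For Dnajb4, the liver of replicate 2 was the lowest in each group, at 36.2 CPM (I/R) and 32.7 CPM (I/R+Rk2). None of these p-values shows that the genes were equal between groups.

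Among the J-domain genes that passed, the calls went both ways. Dnajc2, which sits at the ribosome and recruits HSP70 to new chains, stood at 19.4, 14.3 and 17.98 CPM in the I/R livers and 9.25, 7.55 and 9.46 CPM in the I/R+Rk2 livers and fell by 0.98 on the log2 scale (adjusted p = 0.00327). Dnajc5, the cysteine string protein of secretory vesicles, stood at 43.8, 38.1 and 41.1 CPM in the I/R livers and 26.9, 22.97 and 25.1 CPM in the I/R+Rk2 livers and fell by 0.72 (adjusted p = 0.00187). For neither gene did the groups overlap. Dnajc13 of endosomes, Dnajc21 of ribosome assembly and Dnajb6, a suppressor of aggregation, were chosen after their values were seen and fell by 0.86, 0.70 and 0.30 (adjusted p = 0.00607, 0.0332 and 0.0296), of which Dnajc13 passed in all 17 alternatives. Without the I/R livers of replicate 1 or 3 or the I/R+Rk2 livers of replicate 2 or 3, neither Dnajc21 (-0.75 to -0.57, adjusted p = 0.063 to 0.113) nor Dnajb6 (-0.32 to -0.25, adjusted p = 0.0526 to 0.106) passed. Dnajb2 rose by 0.51 (adjusted p = 0.0178, 0.0023 to 0.152 over the alternatives) and Dnajc9, a histone-associated J protein, by 0.50 (adjusted p = 0.035, 0.024 to 0.211). Dnajb2 did not pass without the I/R livers of replicate 2 (0.43, adjusted p = 0.0568) or 3 (0.44, 0.064), and Dnajc9 passed with none of the 6 livers left out (0.46 to 0.57, adjusted p = 0.0533 to 0.106).

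Over the 12 genes of the HSP70, HSP110, HSP90 and small heat-shock classes that fell, the 3 I/R+Rk2 livers kept much the same order. The liver of replicate 1 was the highest of its group for 9 of the 12 and that of replicate 3 the lowest for 8. These genes were picked because they fell, Hspa1a, Hspa1b and Hspa1l are not fully separate cases, and the order over all genes was not analysed here. The same liver of replicate 1 had the highest neutrophil and monocyte marker sums of its group and the lowest hepatocyte sum. That of replicate 3 had the lowest neutrophil sum. Its monocyte (59.7 CPM) and hepatocyte (130918 CPM) sums lay between those of the other I/R+Rk2 livers. The part of the markers in the order of the livers was not tested. As a share of all counts, which is not scaled, the 80 members together took 0.994% to 1.17% in I/R and 0.689% to 0.836% in I/R+Rk2, without overlap. On the scaled library size they summed to 9725 to 10345 CPM in I/R and 7540 to 8573 CPM in I/R+Rk2, also without overlap.

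**Figure D3:**
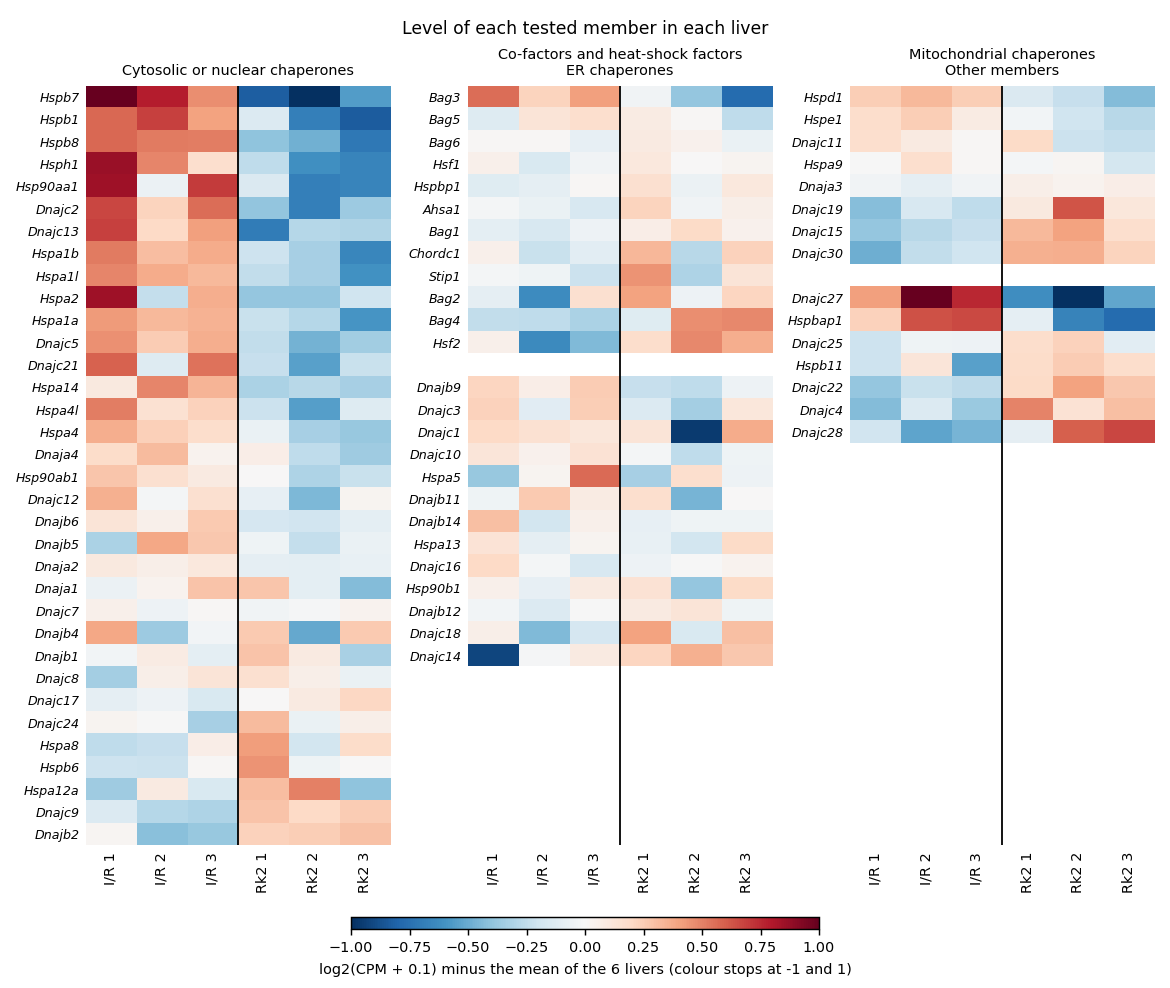
Level of each tested member (rows) in each liver (columns), as log2(CPM + 0.1) minus the mean of the 6 livers, with red above and blue below that mean and the colour range ending at -1 and 1. The top of the cytosolic panel is red in all I/R livers and blue in all I/R+Rk2 livers for most genes, while 3 of the 13 ER members have groups that do not overlap, beside 57.4% of all genes.

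Of the 12 factors that work around HSP70 and HSP90 or regulate them, 1 fell and 2 rose, beside 23.7% lower and 20.3% higher of all genes. Bag3, the stress-inducible BAG protein that joins HSP70 to small heat-shock proteins, stood at 190.4, 151 and 171 CPM in the I/R livers and 126, 98.8 and 75.7 CPM in the I/R+Rk2 livers, without overlap. Its log2 fold change was -0.77 ± 0.19 (adjusted p = 0.0149), with -0.68 (0.0505) without the I/R liver of replicate 1 and -0.75 (0.0515) without the I/R+Rk2 liver of replicate 2. Stip1, which hands clients from HSP70 to HSP90, was at 0.21 ± 0.18 (adjusted p = 0.381), the HSP90 activator Ahsa1 at 0.17 ± 0.10 (adjusted p = 0.196), and the HSP90 co-chaperone Chordc1 at 0.21 ± 0.17 (adjusted p = 0.35). For these 3 genes the groups overlapped.

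The transcript of Hsf1, the main regulator of the cytosolic heat-shock response, stood at 11.8, 10.2 and 11.04 CPM in the I/R livers and 12.2, 11.4 and 11.5 CPM in the I/R+Rk2 livers. The groups overlapped and the log2 fold change was 0.09 ± 0.11 (adjusted p = 0.538). HSF1 is controlled mainly at the protein level, which mRNA does not show. Hsf2, a related factor, stood at 14.9, 9.17 and 10.5 CPM in the I/R livers and 16.2, 19.98 and 18.5 CPM in the I/R+Rk2 livers and rose by 0.67 (adjusted p = 0.0277). Bag4, an anti-apoptotic BAG protein, rose by 0.58 (adjusted p = 0.0284). Neither call was firm: Hsf2 passed in 8 and Bag4 in 7 of 17 alternatives (adjusted p of 0.00528 to 0.172 and 0.00175 to 0.448). Hsf2 did not pass without the I/R livers of replicate 2 or 3 or the I/R+Rk2 livers of replicate 2 or 3 (0.53 to 0.66, adjusted p = 0.0629 to 0.0857), and Bag4 passed, of the 6 livers, only with the I/R+Rk2 liver of replicate 1 left out (0.48 to 0.60, adjusted p = 0.068 to 0.09 for the others).

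Genes of the cytosolic folding machinery outside these families were read from a list chosen for function. Of 25 tested, 2 fell and 5 rose, with a median log2 fold change of -0.07, beside 23.7% lower and 20.3% higher of all genes. Fkbp5, an HSP90 co-chaperone of the glucocorticoid receptor and itself a glucocorticoid target, stood at 91.9, 56.9 and 48.3 CPM in the I/R livers and 22.5, 25.5 and 24.2 CPM in the I/R+Rk2 livers and fell by 1.45 (adjusted p = 0.00319). Hsbp1, a binder of HSF1, rose by 0.48 (adjusted p = 0.00341), and St13, the HSP70-interacting protein HIP, by 0.47 (adjusted p = 0.00444). The I/R and I/R+Rk2 livers did not overlap for any of these 3, although with limma on log2(FPKM + 1) Hsbp1 (0.27, adjusted p = 0.0584) and St13 (0.26, adjusted p = 0.0905) did not pass.

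In the ER, 1 of the 13 members passed the test, beside 43.9% of all genes, and their mean levels in I/R ran from 0.948 FPKM (Dnajc18) to 339.8 FPKM (Hspa5). Hspa5 (BiP), the HSP70 of the ER and a standard marker of the unfolded protein response, stood at 618, 818 and 1189 CPM in the I/R livers and 636, 900.0 and 777 CPM in the I/R+Rk2 livers. The spread among the I/R livers covered every I/R+Rk2 liver. The log2 fold change was -0.18 ± 0.24 (adjusted p = 0.57). Hsp90b1 (GRP94), the HSP90 of the ER, stood at 615, 562 and 633 CPM in the I/R livers and 656, 455 and 678 CPM in the I/R+Rk2 livers, with the I/R+Rk2 liver of replicate 2 below all others, and a log2 fold change of -0.02 ± 0.16 (adjusted p = 0.94). The BiP partners Dnajb11 at -0.18 ± 0.17 (adjusted p = 0.421) and Dnajc3 at -0.24 ± 0.15 (adjusted p = 0.228) did not pass either.

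The ER member that passed was Dnajb9 (ERdj4), a BiP partner that holds the stress sensor IRE1 inactive. It stood at 156, 141 and 161 CPM in the I/R livers and 115, 113 and 129.6 CPM in the I/R+Rk2 livers, without overlap. It fell by 0.36 (adjusted p = 0.0193, 0.00735 to 0.0717 over the alternatives), and did not pass without the I/R livers of replicate 1 (-0.33, adjusted p = 0.0717) or 3 (-0.32, 0.0708) or the I/R+Rk2 liver of replicate 2 (-0.32, 0.0666). Outside the families, 17 ER folding and stress genes were tested, of which 3 fell and 2 rose, with a median of 0.04, beside 23.7% lower and 20.3% higher of all genes. Those that fell were Eif2ak3, the stress sensor PERK, by 0.58 (adjusted p = 0.00587), Atf6 by 0.41 (adjusted p = 0.00627) and Xbp1 by 1.14 (adjusted p = 0.00878), of which Atf6 did not pass with the length correction (-0.21, adjusted p = 0.0958). Xbp1, the factor that is spliced by IRE1, stood at 487, 670.3 and 527 CPM in the I/R livers and 353, 195 and 217 CPM in the I/R+Rk2 livers. The counts do not separate its spliced from its unspliced form. Several of the 17 genes were lowest of all livers in the I/R+Rk2 liver of replicate 2. Chosen after their values were seen, Hyou1 stood there at 73.9 CPM against 170 and 227 CPM in the other I/R+Rk2 livers. Creld2 stood there at 25.1 CPM against 84.1 and 81.5 CPM. Sec63, P4hb and Serpinh1, among others, were not lowest there. Without that liver Sdf2l1 passed (adjusted p = 0.0184), as in no other alternative.

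The 2 that rose, chosen after their values were seen, were the disulfide isomerase Pdia4 by 0.52 (adjusted p = 0.0284, 0.00533 to 0.212 over the alternatives) and Sil1, a nucleotide exchange factor of BiP, by 0.28 (adjusted p = 0.0346, 0.019 to 0.34). Each passed with only 1 of the 6 livers left out, the I/R+Rk2 liver of replicate 2 for Pdia4 and that of replicate 1 for Sil1. Ern1, the stress sensor IRE1, was higher in every I/R+Rk2 liver than in any I/R liver, but its log2 fold change of 0.25 ± 0.09 did not pass (adjusted p = 0.0647, 0.0156 to 0.707 over the alternatives).

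The ER stress element, the promoter site of ATF6, was searched as CCAAT, 9 bases of any kind and CCACG, on both strands. It stood in at least 1 window of 0.137% of all genes and of 4.62% of the 65 members with an entry, which are 3 ER chaperones. They are shown as the members that hold this site, and none of the 3 passed the test. Capitals mark the element in Hspa5 (chr2:34772020-34772048, plus strand), Dnajc3 (chr14:118937822-118937850, plus strand) and Hsp90b1 (chr10:86705528-86705661, minus strand), where it occurs once in each orientation. In GENCODE the stretch of Hspa5 falls in an untranslated part of its first exon.
Hspa5: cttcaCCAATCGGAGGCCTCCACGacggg
Dnajc3: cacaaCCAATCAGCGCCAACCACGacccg
Hsp90b1: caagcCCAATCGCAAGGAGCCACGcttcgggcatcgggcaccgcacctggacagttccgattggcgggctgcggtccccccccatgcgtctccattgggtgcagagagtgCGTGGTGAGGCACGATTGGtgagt
Hspa5, Dnajc3 and Hsp90b1 had log2 fold changes between -0.24 and -0.02.

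In mitochondria, both genes of the folding chamber fell and 3 genes for J-domain proteins of the inner membrane rose. Hspd1 (HSP60), which forms the chamber, stood at 443, 468 and 443 CPM in the I/R livers and 339, 319 and 277 CPM in the I/R+Rk2 livers. Hspe1 (HSP10), its lid, stood at 182, 191 and 170.3 CPM in the I/R livers and 158, 139.8 and 133 CPM in the I/R+Rk2 livers. For both genes all I/R+Rk2 livers were lower than all I/R livers. The log2 fold change was -0.53 ± 0.10 for Hspd1 (adjusted p = 0.00546, passing in 17 of 17 alternatives) and -0.33 ± 0.10 for Hspe1 (adjusted p = 0.0271, 0.00483 to 0.0905 over the alternatives). Hspe1 passed, of the 6 livers, only with the I/R+Rk2 liver of replicate 1 left out (-0.38 to -0.28, adjusted p = 0.0527 to 0.0905 for the others).

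Hspd1 and Hspe1 stand head to head on chromosome 1, at chr1:55077835-55088243 (minus strand) and chr1:55088132-55091307 (plus strand) in GRCm38, and 112 of their exonic bases overlap. Without a stated strand setting, reads in that overlap cannot be given to one of them. RefSeq has 2 windows for Hspd1. The stretch shown lies before the start of Hspe1 and before one of the Hspd1 starts, but after the other, in an untranslated exon of a longer GENCODE transcript of Hspd1. It is given because it is in a promoter window of both genes and holds 2 overlapping matches of the 3-unit heat-shock element (chr1:55088054-55088081, plus strand as read for Hspe1, in capitals). Read for Hspd1, it is the same stretch on the other strand.
Hspe1: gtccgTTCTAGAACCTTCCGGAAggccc
Hspd1: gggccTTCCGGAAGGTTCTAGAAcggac
Hspe1 counts were 38.4% to 41.0% of those of Hspd1 in I/R and 43.9% to 47.8% in I/R+Rk2, higher in every I/R+Rk2 liver than in any I/R liver.

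Hspa9 (mortalin), the HSP70 that pulls proteins into the matrix, stood at 511, 576 and 517 CPM in the I/R livers and 506, 520.4 and 454 CPM in the I/R+Rk2 livers, with overlap, at a log2 fold change of -0.12 ± 0.10 (adjusted p = 0.363). Its matrix partner Dnaja3 was at 0.11 ± 0.07 (adjusted p = 0.261). Dnajc15 and Dnajc19, J proteins at the inner-membrane import channel, and Dnajc30, which binds the ATP synthase, were higher. Dnajc15 stood at 12.2, 13.2 and 13.6 CPM in the I/R livers and 20.1, 21.2 and 17.99 CPM in the I/R+Rk2 livers, without overlap, and rose by 0.61 (adjusted p = 0.00491). Dnajc30 rose by 0.62 (adjusted p = 0.00592), although 26.2% of its exonic bases overlap Bud23 on the other strand, so its reads are uncertain. Dnajc19 rose by 0.59 (adjusted p = 0.0271, 0.0096 to 0.08 over the alternatives), and did not pass without the I/R livers of replicate 1 (0.52, adjusted p = 0.08) or 3 (0.59, 0.0716) or the I/R+Rk2 liver of replicate 2 (0.39, 0.064). Of 12 other mitochondrial chaperones and proteases, 0 fell and 4 rose, with a median of 0.22, beside 23.7% lower and 20.3% higher of all genes. At an unadjusted p below 0.05, 1 was lower with edgeR, 1 with DESeq2 and 2 with limma on log2(FPKM + 1), of which 1 also passed the adjusted threshold in limma. Clpx, the unfoldase of the matrix ClpXP protease, rose by 1.28 (adjusted p = 0.00202), the iron-sulfur co-chaperone Hscb by 1.26 (adjusted p = 0.00305) and Timm44, the anchor of mortalin at the channel, by 0.39 (adjusted p = 0.02). Timm44 did not pass without the I/R livers of replicate 2 or 3 or the I/R+Rk2 livers of replicate 2 or 3 (0.33 to 0.39, adjusted p = 0.0526 to 0.0657), and with limma on log2(FPKM + 1) it was at 0.05 (adjusted p = 0.793).

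**Figure D4:**
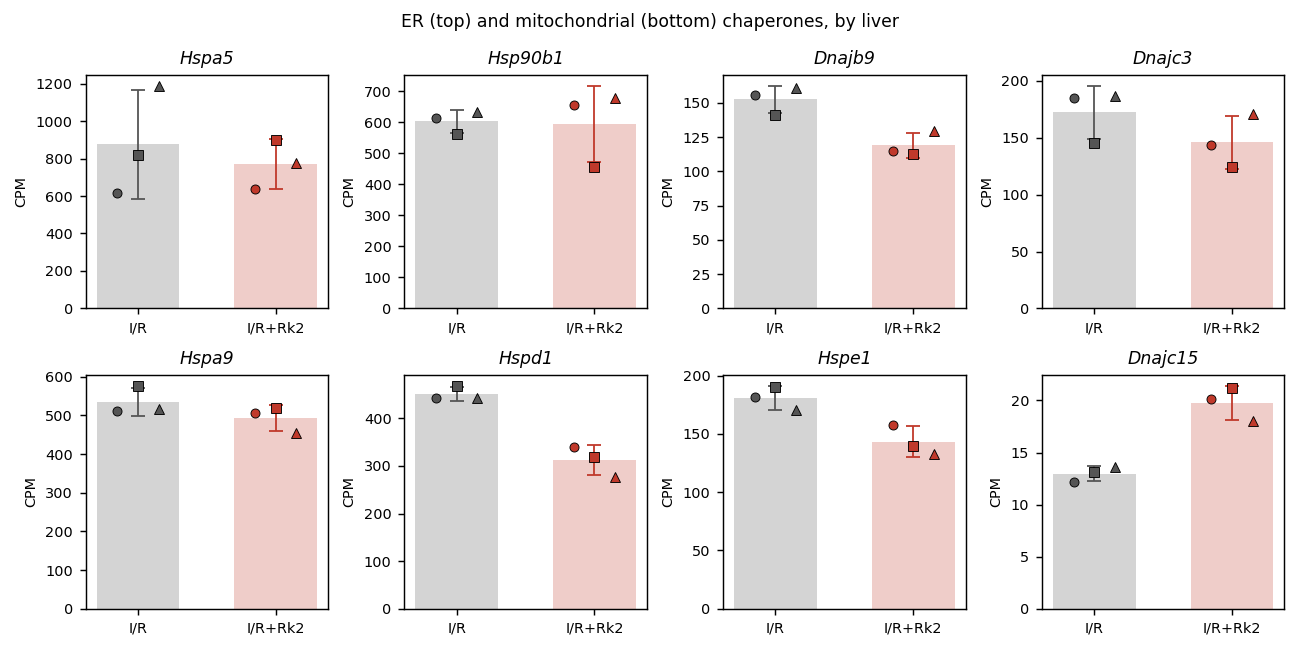
CPM (y axis, from 0) of 4 ER chaperones (top) and 4 mitochondrial chaperones (bottom) in each liver, with bars for group means, the standard deviation of 3 livers, and circles, squares and triangles for replicates 1, 2 and 3. Hspa5, Hsp90b1, Dnajc3 and Hspa9 overlap between groups, Dnajb9, Hspd1 and Hspe1 are lower in all I/R+Rk2 livers, and Dnajc15 is higher.

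Of the 8 members in none of the compartments 7 were tested, and 2 fell and 3 rose, beside 23.7% lower and 20.3% higher of all genes. Dnajc27, a small GTPase with a J domain, had only 40 to 92 counts in the I/R libraries and 17 to 23 in the I/R+Rk2 libraries, and fell by 1.70 on the log2 scale (adjusted p = 0.00574). Hspbap1, named for its binding to HSP27, fell by 1.02 (adjusted p = 0.0122). With limma on log2(FPKM + 1) Dnajc27 was at -0.47 and Hspbap1 at -0.56, both still past the threshold. Dnajc22, Dnajc4 and Dnajc28, chosen after their values were seen, rose by 0.58, 0.63 and 0.83 (adjusted p = 0.003, 0.0147 and 0.0263). Dnajc22 passed in all 17 alternatives. Dnajc4 did not pass without the I/R liver of replicate 3 (0.60, adjusted p = 0.0578), nor Dnajc28 without the I/R livers of replicate 2 or 3 or the I/R+Rk2 livers of replicate 2 or 3 (0.71 to 0.79, adjusted p = 0.071 to 0.0832). The 6 members that were not tested (Dnajb13, Dnajb3, Dnajb7, Hspa12b, Hspb2 and Hspb9) each stayed below 0.89 CPM in every liver. A further 5 names of the same families appear in the FPKM table alone, listed at 0 in all 6 livers.

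Levels can be compared between genes only per transcript length, in FPKM. In the I/R livers the order of means was Hsp90ab1 (527 ± 66.7 FPKM, mean ± SD of 3), Hspa1b (404 ± 57.6), Hspa5 (339.8 ± 108), Hspa1a (311 ± 31.8), Hspb8 (275 ± 23.9) and Hspa8 (244 ± 35.4). The mean ± SD ranges of all neighbours in this order overlapped. In the I/R+Rk2 livers the first places went to Hsp90ab1 (365 ± 47.8 FPKM), Hspa5 (308 ± 75.3), Hspa8 (261 ± 56.97), Hspa1b (209 ± 37.99) and Hsp90b1 (189.6 ± 39.2). The mean of the inducible Hspa1b was above that of the constitutive Hspa8 in I/R and below it in I/R+Rk2, where their mean ± SD ranges overlapped. Of the 80 members, 14 had a mean above 100 FPKM in I/R and 11 in I/R+Rk2, and 10 had a mean of at most 1 FPKM in I/R.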

How the data were processed

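RNA from 6 mouse livers was sequenced, 3 per group. Per the submitters' processing notes and the study's methods, the authors checked reads with FastQC 0.11.5, aligned them to mm10 with HISAT2 2.2.1 and assembled expression with StringTie 1.3.3. The annotation, the strand setting and whether counts were taken from reads or from StringTie coverage are not given in the sources used here, which touches genes with few counts most. The authors deposited whole-number counts per gene, and a table of FPKM, used here for levels per length and as an alternative.

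Counts were tested in R 4.3.3 with edgeR 4.0.16 (filterByExpr, TMM scaling, quasi-likelihood F test, no covariate, all 6 libraries), with Benjamini-Hochberg adjusted p over 12411 genes. A log2 fold change sets I/R+Rk2 against I/R and is given ± the standard error, which is the absolute fold change over the square root of F. CPM use the TMM-scaled library size. The labels name separate livers, so p-values measure the spread between these samples. The 3-count limits cover counting error only.

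The members and lists were chosen with earlier results of these data known. Named were 27 core genes, members past an adjusted p of 0.05 and a fold of 2, the 5 smallest p per direction in each compartment among those that passed, and the 3 smallest p of each partner list; other members named were chosen after their values were seen. Locations are from GENCODE M21 (GRCm38) and promoter windows from RefSeq (GRCm38.p6); 65 of 80 members had a window. Alternatives were other scalings, other filters, DESeq2 1.42.0, limma 3.58.1 on log2(FPKM + 1) or log2(FPKM + 0.1), each liver left out, a replicate block, a length correction and Hspa1a and Hspa1b summed.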

Additional observations from a re-analysis of the deposited data

How the results depend on the processing

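Of the 33 members called, 18 passed in every alternative that gave them a value (15 lower and 3 higher), and 15 lost the call in at least 1. Of the 41 not called, 6 passed in at least 1. The count of lower members was 15 to 25 with a liver left out, where 17.6% to 24.2% of all genes were lower. With library size alone 28.0% of all genes were lower, and with upper-quartile scaling 21.7%. The count of higher members was 3 with library size alone, 5, 5 and 3 in the fits to FPKM (with 1 or 0.1 added and a mean of at least 1, and without a filter), and 3 to 9 with a liver left out. Members past a fold of 2 were 4 with upper-quartile scaling and 3 to 9 with a liver left out. Cytosolic members higher were 0 with library size alone and in the 3 fits to FPKM, 1 with DESeq2 and with the length correction, and 0 to 1 with a liver left out. Among co-factors and heat-shock factors, 0 were higher with library size alone and in the 3 fits to FPKM, and with a liver left out the counts were 0 to 2 higher and 0 to 1 lower. ER members lower were 2 with library size alone and 0 to 1 with a liver left out. Mitochondrial members lower were 1 with upper-quartile scaling and 1 to 3 with a liver left out. A liver left out means fewer samples in the test.

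With the replicate number as a block, 23 members were lower and 6 higher, beside 20.9% and 17.1% of all genes. In that fit 1 cytosolic member and 0 co-factors were higher. Same-numbered livers did not deviate together (correlations of -0.062, -0.0021 and -0.065), so the numbers do not pair the samples.

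Among the named genes, signs changed for 8 that did not pass, all at small values. With library size alone they were -0.056 for Dnaja3, -0.10 for Dnajb1, -0.16 for Dnajb4 and -0.073 for Hsf1. In the fits to FPKM (with 1 added, with 0.1 added, and with no filter) they were -0.00044, -0.00047 and -0.00044 for Ahsa1, -0.051, -0.052 and -0.051 for Dnaja3, -0.13, -0.13 and -0.13 for Dnajb1, -0.15, -0.16 and -0.15 for Dnajb4, and -0.062, -0.072 and -0.062 for Hsf1. Upper-quartile scaling gave 0.036 for Hsp90b1, at least 10 counts in every sample gave -0.0017 for Dnajb4, and the length correction gave 0.035 for Dnaja1 and 0.011 for Hsp90b1. With a liver left out, Dnaja1 ran from -0.36 to 0.011, Dnajb1 from -0.094 to 0.21, Dnajb4 from -0.15 to 0.24, Hsp90b1 from -0.11 to 0.15 and Hspa5 from -0.37 to 0.098. The cause of these changes was not tested. Among called members, 14 moved by over 1.5 times in at least 1 alternative. The values nearest to 0 were 0.19 for Bag4, 0.33 for Dnajb2, 0.33 for Dnajc28, 0.23 for Dnajc9 and 0.35 for Hsf2 with limma on log2(FPKM + 1), -0.19 for Dnajb6 and 0.40 for Dnajc4 with the length correction, and those given above for Hspa4l, Hspb7, Dnajc27, Hspbap1 and Dnajc19. Farther from 0 were Dnajb6 at -0.46 with library size alone, Hsp90ab1 at -0.53 with limma on log2(FPKM + 0.1) and Hspe1 at -0.54 with the length correction. The median of all genes was -0.12 and -0.15 in the filtered fits to FPKM against -0.01.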

Other observations

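For some members the 2 deposited tables did not run in parallel. For 67 members with at least 50 counts in every library, FPKM was divided by CPM and set against the median member of that library. The highest library exceeded the lowest by a median factor of 1.08, but by over 1.5 for 8 members. Hspa4l stood out at 3.07: its counts of 490, 509 and 526 in the I/R libraries went with 7.39, 2.90 and 4.83 FPKM, and its counts of 367, 412 and 266 in the I/R+Rk2 libraries with 6.52, 3.73 and 3.49 FPKM. Dnajb5, Bag6, Dnajc24, Dnajc13, Dnaja1, Dnajc5 and Dnajc28 followed, between 1.502 and 2.14. These genes were chosen after their values were seen, and isoform use was not analysed here.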
